A study of Mus musculus with 6 samples.

Results

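The genes *F3*, *F7*, *F10*, *F13a1*, *Tgm2*, *Fn1*, *Postn*, *Igf1*, *Tgfb1* and *Thbs1* encode proteins with which macrophages take part in clotting, matrix assembly and wound repair. These 10 genes were chosen by name, with earlier results of these data known, from the 24445 genes of the count table. All 10 had enough counts to be among the 12023 genes tested. Each gene is represented by its RefSeq row with most counts. RNA was sequenced from bone marrow-derived macrophages (BMDMs), which grew from marrow precursors over 7 days of culture with L929-conditioned medium, a source of the macrophage growth factor M-CSF. Both groups came from female mice, carried *Acly* alleles with loxP sites around exon 9 on a C57Bl/6J background, and received 100 U/mL IL-4 for 24 h. AclyM-KO mice also carried Cre under *Lyz2* control, which is active in myeloid cells, whereas the littermate controls (Ctrl, labelled WT) were Acly fl/fl. Each group had 3 libraries. Age was not given for these mice, and naive BMDMs were not analysed here, so the values do not show how IL-4 itself changed these genes. The replicates are called biological in the statistics section of the paper and technical, from 3 pooled mice, in a figure legend, so the tests measure the spread between libraries, which may be technical.

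Clotting starts when tissue factor, a membrane protein encoded by *F3*, binds factor VII from plasma. The complex cleaves factor X, whose active form generates thrombin, and thrombin turns fibrinogen into fibrin. Factor XIII, whose catalytic A chain is encoded by *F13a1*, then links fibrin strands by transglutamination, the reaction that tissue transglutaminase (*Tgm2*) also carries out on fibronectin and other matrix proteins. Fibronectin (*Fn1*), periostin (*Postn*) and thrombospondin 1 (*Thbs1*) join this provisional matrix, and thrombospondin 1 can release active TGF-β1 from its latent form. TGF-β1 (*Tgfb1*) and IGF-1 (*Igf1*) act on fibroblasts and other cells of the healing tissue. Macrophages activated by IL-4 are a known source of several of these products, and factor XIII A and tissue transglutaminase are common markers of this state.

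The clotting factor genes among the 10, *F3*, *F7*, *F10* and *F13a1*, all fell in AclyM-KO, though *F7* not in every fit. *F5*, a clotting factor gene outside the 10, rose. For *F3*, *F7*, *F10* and *F13a1*, the 250 bases before the RefSeq transcription start (GRCm38.p6) are shown, 5′ to 3′ on the coding strand. Capitals mark matches, on either strand, to the STAT motif TTCNNNGAA, its STAT6 form with 4 instead of 3 middle bases, TGANTCA (AP-1), GAGGAA (the core of PU.1 sites), ACGTG (HIF), TATAAA (the TBP motif) and GGGCGG (the SP1 motif). These motifs were chosen after the expression values were seen.
F3, chr3:121723287-121723536, plus strand: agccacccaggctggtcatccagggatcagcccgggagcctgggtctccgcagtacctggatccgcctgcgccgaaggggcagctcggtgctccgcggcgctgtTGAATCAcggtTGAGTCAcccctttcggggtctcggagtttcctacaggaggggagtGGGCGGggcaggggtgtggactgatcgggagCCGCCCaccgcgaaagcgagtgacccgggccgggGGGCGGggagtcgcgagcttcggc
F7, chr8:13025784-13026033, plus strand: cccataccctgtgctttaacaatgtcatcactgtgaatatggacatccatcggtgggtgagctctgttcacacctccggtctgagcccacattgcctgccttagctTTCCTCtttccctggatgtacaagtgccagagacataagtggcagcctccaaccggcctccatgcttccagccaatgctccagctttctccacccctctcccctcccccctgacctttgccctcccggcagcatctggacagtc
F10, chr8:13037058-13037307, plus strand: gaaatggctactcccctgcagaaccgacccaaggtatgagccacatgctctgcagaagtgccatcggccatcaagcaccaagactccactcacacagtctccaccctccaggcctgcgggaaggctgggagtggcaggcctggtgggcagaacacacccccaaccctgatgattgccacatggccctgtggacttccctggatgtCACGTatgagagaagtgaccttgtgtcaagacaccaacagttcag
F13a1, chr13:37050245-37050494, minus strand: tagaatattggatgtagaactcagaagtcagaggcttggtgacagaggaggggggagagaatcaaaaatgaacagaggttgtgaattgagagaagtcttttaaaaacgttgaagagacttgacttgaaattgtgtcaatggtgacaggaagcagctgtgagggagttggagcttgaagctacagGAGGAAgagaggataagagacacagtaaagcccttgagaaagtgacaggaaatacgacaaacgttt
*F13a1* has a second RefSeq start, whose 250 bases (chr13:37049214-37049463) are not shown. Positions count from the start base as 1, with no base 0. The *F3* sequence held 2 AP-1 motifs, at -146 to -140 and -135 to -129, and 3 SP1 motifs. The AP-1 motif was found in 7.81% and the SP1 motif in 35.7% of all 32851 RefSeq windows of 300 bases, which run from 250 before a start to 50 after it. The *F7* and *F13a1* sequences held the PU.1 core, at -144 to -139 on the reverse strand and at -66 to -61, as did 28.3% of all windows. The *F10* sequence held the HIF motif at -45 to -41 on the reverse strand, found in 19.6% of all windows. No STAT motif occurred in the windows of *F3*, *F7*, *F10*, *F13a1*, *Postn*, *Igf1* or *Tgfb1*, against 8.30% of all windows for TTCNNNGAA and 6.95% for the STAT6 form. The only *Igf1* window has its upstream bases at 87860861 to 87861110, so the start of the *Igf1* row used, at 87858265, was not searched. No window was available here for *Tgm2*, *Fn1* or *Thbs1*, so these genes were not searched.

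The targeted gene *Acly*, for ATP citrate lyase, was lower in every library labelled KO. It had 4917, 3925 and 4606 counts in Ctrl against 2140, 2078 and 1978 in AclyM-KO, and its level in CPM, which are counts scaled to the size of each library, was 41.4% of that in Ctrl. Libraries held 12151975 to 15587283 counts. Across all genes tested, 12.6% were lower and 12.4% higher in AclyM-KO with an adjusted p under 0.05 (edgeR quasi-likelihood test with Benjamini-Hochberg adjustment), which is what "fell" and "rose" refer to here. With a log2 fold change beyond 0.58 as well, 2.57% were lower and 2.98% higher. Summed CPM of the 8 macrophage markers was 13399 to 14711 in Ctrl and 11088 to 11539 in AclyM-KO, with *Lyz2*, whose control region drives Cre (log2 fold change -0.67, adjusted p = 5.79e-08) and *Mertk* (-0.73, adjusted p = 2.56e-07) falling beyond 0.58. *Lyz2* went from 6595 to 4142 CPM, most of the difference in the sum, and *Adgre1*, for the macrophage protein F4/80, rose from 1573 to 1978 CPM (0.33, adjusted p = 2.27e-05). Summed CPM of 8 monocyte markers was 17.1 to 22.6 in Ctrl and 34.2 to 40.2 in AclyM-KO, with *Spn* (1.16, adjusted p = 3.22e-06) rising. The 7 neutrophil markers summed to 12.1 to 13.3 and 18.5 to 18.9 CPM, with *S100a8* (0.85, adjusted p = 0.00257) and *S100a9* (0.59, adjusted p = 0.0152) rising and *Ly6g* at 1 count or fewer in every library. The 8 fibroblast markers summed to 0.379 to 1.06 and 1.23 to 2.06 CPM, with *Lum* at 0. The 6 dendritic cell markers summed to 3.04 to 4.25 and 3.15 to 4.25 CPM. Because these are bulk RNA samples, fewer cells of a type and less RNA per cell cannot be told apart, and the part of these marker differences in the results was not tested.

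Of the 10 genes, 6 fell in AclyM-KO (*F3*, *F7*, *F10*, *F13a1*, *Tgm2* and *Postn*), 2 rose (*Igf1* and *Thbs1*), and *Fn1* and *Tgfb1* did not pass the test, against 12.6% lower and 12.4% higher among all genes tested. Among the 10, both coagulation proteases and their cell surface starter, and both transglutaminases, were therefore among the genes that fell. For *F7* the groups overlapped. Beyond a log2 fold change of 0.58 there were 5 that fell and 1 that rose, against 2.57% and 2.98%. A test against a change of 0.58 itself (glmTreat) left 1 that fell, *F3*, and 1 that rose, *Thbs1*. The groups did not overlap for 8 of the 10 genes, against 40.2% of all genes tested. The median log2 fold change of the 10 genes was -0.46, against 0.0014 over all genes tested. The 10 genes were chosen with earlier results of these data known, so these contrasts with all genes tested are descriptive only. Ctrl replicate 2 was the highest Ctrl library for 7 of the 10 genes, so *F3*, *F7* and *Fn1* are also given without it.

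**Figure D1:**
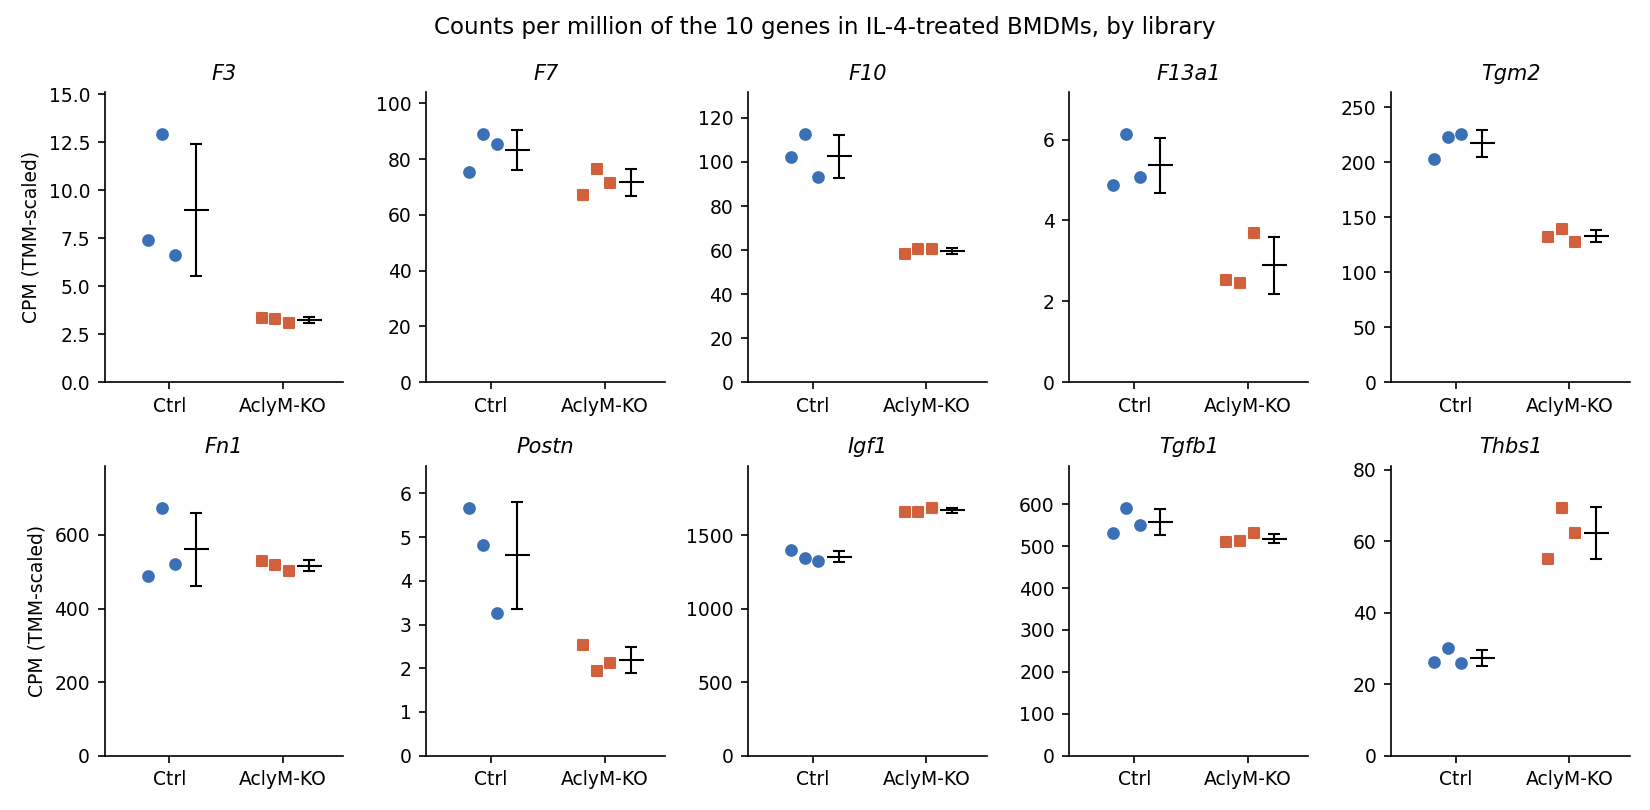
CPM (TMM-scaled) of each of the 10 genes in the 3 Ctrl (blue circles) and 3 AclyM-KO (orange squares) libraries, with mean and SD as bars. The groups are apart for all but *F7* and *Fn1*, and Ctrl replicate 2 stands above the other Ctrl libraries for *F3* (12.9 CPM) and *Fn1* (674 CPM).

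Tissue factor fell most of the 10. *F3* lies on the plus strand of chromosome 3 (121723537 to 121735048, GRCm38) and has 6 exons. It had 110, 158 and 87 counts in Ctrl against 49, 51 and 45 in AclyM-KO, or 7.43, 12.9 and 6.60 against 3.34, 3.28 and 3.08 CPM. Every AclyM-KO library was thus below the lowest Ctrl library, and the spread was far wider in Ctrl. The mean fell from 8.99 ± 3.43 to 3.24 ± 0.135 CPM (SD, n = 3), a log2 fold change of -1.46 (SE 0.233, edgeR adjusted p = 3.03e-04). Without Ctrl replicate 2, the log2 fold change was -1.12. With counts this low, counting error alone gave 95% Poisson intervals of 7.94 to 9.80 and 2.73 to 3.81 CPM for the pooled groups.

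The genes of the proteases that act with tissue factor lie next to each other on the plus strand of chromosome 8, *F7* (8 exons) at 13026034 to 13035809 and *F10* (9 exons) at 13037308 to 13056676, with 1498 bases between them. *F10*, for factor X, had 1514, 1377 and 1225 counts in Ctrl against 852, 937 and 883 in AclyM-KO. All AclyM-KO libraries lay well below all Ctrl libraries, at 103 ± 9.83 CPM in Ctrl and 59.6 ± 1.32 in AclyM-KO (SD, n = 3). The AclyM-KO level was 58.1% of that in Ctrl, with a log2 fold change of -0.78 (SE 0.0644, edgeR adjusted p = 5.22e-07). *F7*, for factor VII, had 1116, 1088 and 1126 counts in Ctrl against 982, 1189 and 1043 in AclyM-KO, or 75.4, 89.0 and 85.5 against 67.0, 76.5 and 71.5 CPM. The highest AclyM-KO library exceeded the lowest Ctrl library. Its log2 fold change of -0.21 (SE 0.0668, edgeR adjusted p = 0.0285) did not pass the test when Ctrl replicate 2 (-0.17, adjusted p = 0.0536), Ctrl replicate 3 (-0.20, adjusted p = 0.0794), AclyM-KO replicate 1 (-0.17, adjusted p = 0.138) or AclyM-KO replicate 3 (-0.21, adjusted p = 0.0809) was left out.

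The ratio of *F7* to *F10* counts within a library was 0.737, 0.790 and 0.919 in Ctrl and 1.15, 1.27 and 1.18 in AclyM-KO. The ratio was below 1 in every Ctrl library and above 1 in every AclyM-KO library. The means were 0.815 ± 0.0936 and 1.20 ± 0.0606 (SD, n = 3), a difference of 0.56 on the log2 scale, with p = 0.10 in a two-sided exact permutation test, the smallest that 3 against 3 libraries allow. The genes on either side of the pair fell as well, and are given for the main fit only. *Mcf2l*, a guanine nucleotide exchange factor gene that ends 5128 bases before *F7*, went from 225 to 162 CPM (log2 fold change -0.47, adjusted p = 2.74e-05). *Proz*, for the clotting regulator protein Z, starts 4237 bases after *F10* and had 63, 64 and 59 counts in Ctrl against 42, 47 and 48 in AclyM-KO (log2 fold change -0.60, adjusted p = 0.0277). Along the chromosome, the AclyM-KO means were 72.1% (*Mcf2l*), 86.0% (*F7*), 58.1% (*F10*) and 65.7% (*Proz*) of Ctrl.

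**Figure D2:**
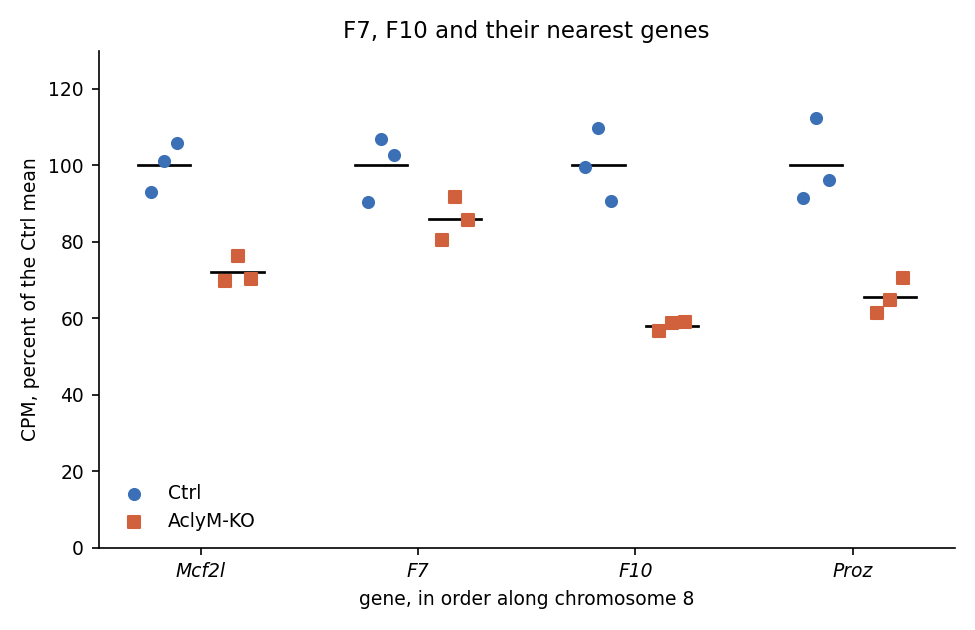
CPM of *F7*, *F10* and the nearest gene on each side, as a percent of the Ctrl mean of that gene, in the order in which they lie on chromosome 8. Circles are Ctrl and squares AclyM-KO libraries, and lines are means; *F7* has the highest AclyM-KO mean (86.0%) and *F10* the lowest (58.1%).

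Both transglutaminases among the 10 genes fell, from very different levels. *Tgm2* (13 exons, chromosome 2, minus strand, 158116402 to 158146436) had 3005, 2725 and 2970 counts in Ctrl against 1932, 2160 and 1863 in AclyM-KO. The groups were far apart, with means of 217 ± 12.3 and 133 ± 5.72 CPM (SD, n = 3) and a log2 fold change of -0.71 (SE 0.0551, edgeR adjusted p = 2.93e-07). *Rprd1b*, a transcription regulator gene on the opposite strand that overlaps 8.03% of the exonic bases of *Tgm2* in GENCODE, had 28.3 CPM in Ctrl and 26.1 in AclyM-KO (log2 fold change -0.12, adjusted p = 0.330). The transcript *Gm20412*, also on the opposite strand, overlaps 13.7% of these bases, and its part in the counts of *Tgm2* was not tested. *F13a1* (15 exons, chromosome 13, minus strand, 36867178 to 37050244) was a low-count gene, with 72, 75 and 67 counts in Ctrl against 37, 38 and 54 in AclyM-KO. AclyM-KO replicate 3 was the highest of its group, but still below every Ctrl library. The mean fell from 5.36 ± 0.678 to 2.89 ± 0.703 CPM (SD, n = 3), a log2 fold change of -0.89 (SE 0.205, edgeR adjusted p = 0.00517).

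The level of *F13a1* needs care, because the counts of a gene may take in its introns and both strands. Of 20 pairs, with 11 different outer genes, in which a counted gene lies inside the span of another without shared exonic bases, the outer gene had at least as many counts as the inner one in every library in 19, and in 7 of the 8 pairs on opposite strands. The exception was the outer gene *Plcl1* (24 counts in all) around *Gm6644* (1245 counts), and *Zbtb46* (182 counts), which holds *Lime1* (408 counts) in its span, was another gene with fewer counts than the one inside it. Some outer genes were so abundant that they exceed the inner gene however reads were counted, such as *Nampt* (19707 counts) around *Gdap10* (143 counts). *F13a1* spans 183067 bases and had 187 counts per 100 kb of span over the 6 libraries, which is percentile 43.3 of the 1831 protein-coding genes that span 100 to 300 kb (25th percentile 5.96, median 442). The unspliced and antisense part of its counts was not measured. The span also shares 103791 bases with the RefSeq lncRNA *Gm30489*. The ratio of *F13a1* to *Tgm2* counts overlapped between groups and was 0.0247 ± 0.00256 in Ctrl and 0.0219 ± 0.00618 in AclyM-KO (SD, n = 3), a log2 difference of -0.20 (two-sided exact permutation p = 0.50, in a design that cannot go below 0.10).

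The matrix genes moved in 3 ways. *Thbs1*, for the matricellular protein thrombospondin 1, lies on the plus strand of chromosome 2 (118111876 to 118127133, 22 exons) and had 389, 367 and 343 counts in Ctrl against 805, 1078 and 909 in AclyM-KO. The lowest AclyM-KO library (54.9 CPM) was well above the highest Ctrl library (30.02 CPM). The mean rose from 27.4 ± 2.23 to 62.2 ± 7.22 CPM (SD, n = 3), or 2.27-fold, with a log2 fold change of 1.18 (SE 0.0858, edgeR adjusted p = 1.78e-07). It was the only 1 of the 10 genes to rise beyond 0.58.

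*Postn*, for periostin, a matricellular protein made mainly by fibroblasts, moved the other way. It lies on the plus strand of chromosome 3 (54361109 to 54391037, 22 exons) and had 84, 59 and 43 counts in Ctrl against 37, 30 and 31 in AclyM-KO. Counts were low and the lowest Ctrl library (3.26 CPM) was close to the highest AclyM-KO library (2.52 CPM). The mean fell from 4.59 ± 1.22 to 2.19 ± 0.303 CPM (SD, n = 3), a log2 fold change of -1.07 (SE 0.236, edgeR adjusted p = 0.00366). None of the 8 fibroblast markers had enough counts to be tested, and the part of fibroblasts in the level of *Postn* was not tested. The RefSeq span of *Postn* shares 1410 bases with the lncRNA *Gm31095*, whose part in its counts was not tested either.

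*Fn1*, for fibronectin, lies on the minus strand of chromosome 1 (71585520 to 71653200, 45 exons in the transcript used) and was abundant, with 7225, 8242 and 6876 counts in Ctrl against 7754, 8074 and 7318 in AclyM-KO. In CPM these were 488, 674 and 522 in Ctrl and 529, 519 and 501 in AclyM-KO, so the AclyM-KO libraries fell within the Ctrl range. The log2 fold change was -0.12 (95% confidence interval -0.30 to 0.060, edgeR adjusted p = 0.332), and without Ctrl replicate 2 it was 0.028. Its 7 transcript rows carried identical counts, so that splice forms such as those with or without the extra domains of fibronectin could not be compared.

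The growth factor genes *Igf1* and *Tgfb1* were both abundant. *Igf1* (chromosome 10, plus strand, 87858265 to 87937042) had 20672, 16426 and 17418 counts in Ctrl against 24302, 25810 and 24625 in AclyM-KO. In CPM, the AclyM-KO libraries (1658, 1661 and 1687) were all above the Ctrl libraries (1397, 1344 and 1322), with little spread in either group. The mean rose 1.23-fold, from 1354 ± 38.5 to 1669 ± 16.4 CPM (SD, n = 3), a log2 fold change of 0.30 (SE 0.0360, edgeR adjusted p = 2.22e-05). *Igf1* has alternative first exons, and the table has 5 rows for it with 3 distinct sets of counts. Reads counted on the row that starts furthest upstream but not on the rows that start furthest downstream made up 3.68% ± 0.655 of its counts in Ctrl against 4.32% ± 0.228 in AclyM-KO (SD, n = 3, two-sided exact permutation p = 0.20). The lncRNA *Igf1os*, on the opposite strand, shares 5129 bases with *Igf1*, this upstream stretch included. Its part in these reads was not tested, so they cannot be assigned to the first exons of *Igf1*.

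*Tgfb1* (7 exons, chromosome 7, plus strand, 25687002 to 25705077) had 7877, 7234 and 7250 counts in Ctrl against 7461, 7977 and 7740 in AclyM-KO. In CPM the Ctrl libraries (532, 592 and 550) lay just above the AclyM-KO libraries (509, 513 and 530). The log2 fold change was -0.11 (95% confidence interval -0.21 to -0.0077) and did not pass the test (edgeR adjusted p = 0.110), except without Ctrl replicate 1 (-0.14, adjusted p = 0.0441). The interval, not adjusted for the number of genes tested, lay just below 0 and reflects only the spread between these libraries. *B9d2*, a cilium gene that ends 443 bases before *Tgfb1*, had a log2 fold change of 0.25 (adjusted p = 0.257).

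**Figure D3:**
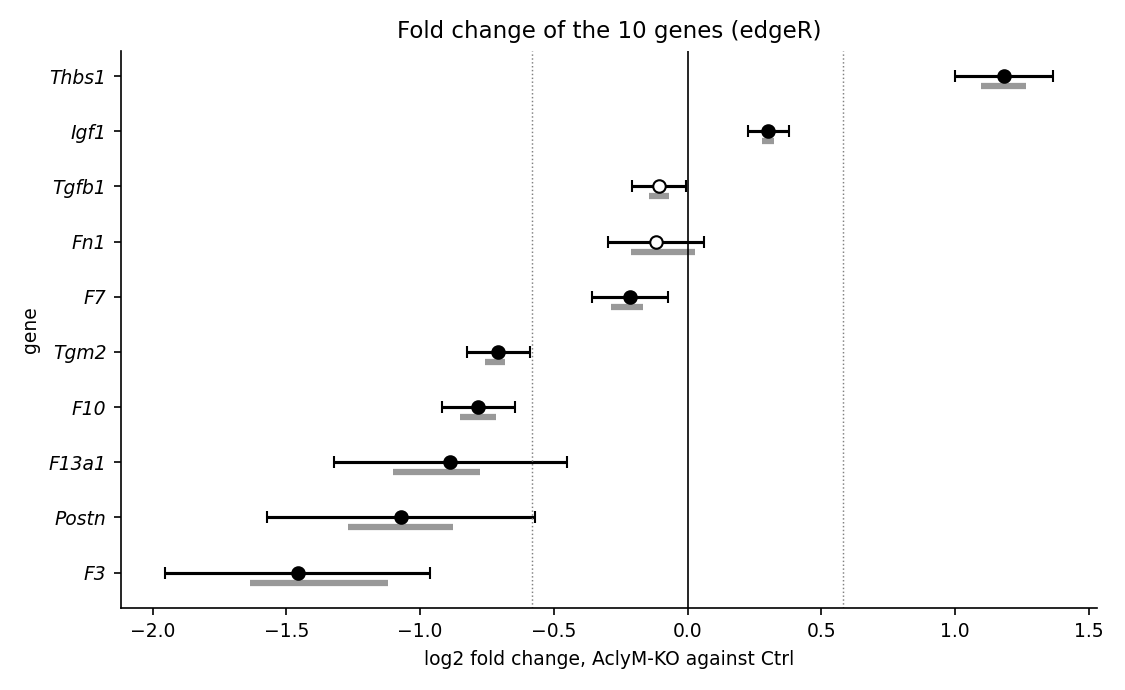
Log2 fold change of each gene in AclyM-KO against Ctrl (edgeR), with 95% confidence intervals as thin bars and the range over the fits that each leave out 1 library as grey bars. Filled points have an adjusted p under 0.05, and dotted lines stand at -0.58 and 0.58; *F3* is lowest (-1.46) and *Thbs1* highest (1.18).

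Between genes, levels can be compared only per transcript length, here as CPM per kb of the transcript used, and approximately, since intronic reads may be among the counts. In Ctrl, *Igf1* (973) and *Tgfb1* (257) came first, followed by *Fn1* (69.8), *Tgm2* (60.4), *F10* (53.9) and *F7* (44.8), and then by *F3* (4.80), *Thbs1* (4.69), *Postn* (1.43) and *F13a1* (1.39). The ranges over libraries overlapped between *Fn1* and *Tgm2*, *Tgm2* and *F10*, *F3* and *Thbs1*, and *Postn* and *F13a1*. In AclyM-KO the order differed in 3 places. *F7* (38.5) came before *Tgm2* (36.9) and *F10* (31.3), though its range overlapped that of *Tgm2*, *Thbs1* (10.6) came well before *F3* (1.73), and *F13a1* (0.750) and *Postn* (0.684) were not separate. The first place of *Igf1* rested on a 1391-base transcript. With its longest transcript, of 7052 bases, *Igf1* had 192 CPM per kb in Ctrl, below *Tgfb1*. The order of *F10* and *F7* in Ctrl also rested on length. With its longest transcript, of 2503 bases, *F10* had a mean of 41.0 CPM per kb, below *F7*, as in AclyM-KO. The ranges of *F10* and *F7* over the Ctrl libraries then overlapped.

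The other genes of these pathways were followed in 10 lists that left out the 10 genes. Of the 160 genes listed, 86 were tested, of which 16 fell and 17 rose (38.4%, against 24.9% of all genes tested), and 3 and 5 did so beyond 0.58 (9.30%, against 5.55%). Their median log2 fold change was -0.021. As a whole, the lists thus moved in both directions.

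In the list of coagulation factors and their inhibitors, 2 of 12 genes tested fell and 3 rose, all 3 beyond 0.58, with a median log2 fold change of 0.16. The ones that rose included both a cofactor and an anticoagulant. *F5*, for factor V, the cofactor of active factor X, had 65, 42 and 28 counts in Ctrl against 199, 166 and 174 in AclyM-KO (log2 fold change 1.84, adjusted p = 6.04e-06), and the lncRNA *Gm16548*, which shares 383 bases with it, had 13 to 19 and 28 to 36. *Thbd*, for thrombomodulin, which turns thrombin towards activating the anticoagulant protein C, went from 13.4 ± 1.20 to 28.5 ± 1.99 CPM (log2 fold change 1.09, adjusted p = 7.71e-07). *Vwf*, for the platelet-binding von Willebrand factor, went from 910 ± 54.9 to 1380 ± 22.8 CPM (0.60, adjusted p = 1.96e-07). Of the other endothelial markers, *Cdh5*, *Tek* and *Emcn* had at most 8, 7 and 0 counts. *Pecam1* fell (-0.74, adjusted p = 1.44e-04), and *Kdr* did not pass the test (0.14, adjusted p = 0.591). The part of endothelial cells in the level of *Vwf* was not tested. *Tfpi*, for the inhibitor of the tissue factor complex, fell with *F3*, *F7* and *F10*, in every AclyM-KO library below every Ctrl library (log2 fold change -0.34, adjusted p = 0.00483), and the other gene that fell was *Vkorc1*, of the vitamin K cycle. The fibrinogen genes *Fga*, *Fgb* and *Fgg* and the prothrombin gene *F2* had 0 counts in every library. Platelet markers summed to 57.3 to 62.5 CPM in Ctrl and 78.4 to 84.3 in AclyM-KO, nearly all of it *Pf4*, with *Gp9* and *Gp6* at 0. *Selp*, a platelet and peritoneal macrophage gene that lies beside *F5*, also rose (1.48, adjusted p = 9.18e-06). *Selp* shares 1451 bases with *Gm16548*, and the part of this lncRNA in the counts of *F5* and *Selp* was not tested. Of the other peritoneal macrophage markers, *Gata6* and *Alox15* had at most 2 and 4 counts, and *Icam2* did not pass the test (0.20, adjusted p = 0.529).

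In the fibrinolysis list, 3 of 6 genes tested rose and none fell, with a median of 0.092. The genes of the plasminogen-binding pair annexin A2 and S100A10 rose together, *Anxa2* from 808 ± 46.2 to 918 ± 23.1 CPM (0.18, adjusted p = 0.00803) and *S100a10* from 108 ± 1.69 to 133 ± 1.38 CPM (0.30, adjusted p = 2.65e-04). The *Anxa2* call was lost without AclyM-KO replicate 1 (0.17, adjusted p = 0.0551). *Serpinb2*, for a plasminogen activator inhibitor, had 6, 11 and 10 counts in Ctrl against 21, 30 and 20 in AclyM-KO (1.22, adjusted p = 0.0204), a call lost without Ctrl replicate 1 (0.93, adjusted p = 0.0956) or AclyM-KO replicate 2 (1.05, adjusted p = 0.0991) and in DESeq2 (1.21, adjusted p = 0.0825). *Plau*, for urokinase, had 253 ± 45.7 and 219 ± 20.5 CPM (-0.21, adjusted p = 0.133), but passed without Ctrl replicate 1 (-0.32, adjusted p = 0.0104) and with no filter on low counts (-0.21, adjusted p = 9.90e-04). Neither of the 2 protease-activated receptor genes tested, *F2r* and *F2rl2*, passed the test. Of the other transglutaminase genes, the 2 tested did not pass either, *Tgm1* with a log2 fold change of -0.47 (adjusted p = 0.0709, but 0.0283 without Ctrl replicate 3, 0.0318 with rows summed and 0.0450 with no filter) and *Tgm4* with 0.21 (adjusted p = 0.20).

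Among matrix and matricellular proteins, 9 of 36 genes could be tested, of which 1 fell and 3 rose, none beyond 0.58. Those that rose were *Mfge8*, for a bridging protein in the uptake of dying cells (385 ± 24.6 to 551 ± 14.3 CPM, 0.52, adjusted p = 3.04e-06), *Tgfbi* (0.39, adjusted p = 2.36e-04) and *Spp1*, for osteopontin (0.17, adjusted p = 0.00202). *Ecm1* fell from 117 ± 7.63 to 86.6 ± 4.25 CPM (-0.43, adjusted p = 6.29e-05). Among receptors for matrix and thrombospondin, 3 of 16 fell and 3 rose, with a median of -0.12. *Cd36*, a thrombospondin receptor and lipid scavenger, rose like *Thbs1*, from 1972 ± 188 to 2556 ± 115 CPM (0.37, adjusted p = 1.48e-04), as did the integrin gene *Itgb3* (0.42, adjusted p = 2.62e-04). The proteoglycan gene *Sdc3* (857 ± 37.2 to 585 ± 8.32 CPM, -0.55, adjusted p = 3.16e-07) and *Itgb5* (-0.23, adjusted p = 0.00262) fell. So did *Lrp1*, from 1033 ± 328 to 708 ± 56.0 CPM (-0.55, adjusted p = 0.00982), while *Sdc4* rose (0.18, adjusted p = 0.00783). *Lrp1* and *Sdc4* are given for the main fit only. *Cd47*, of the same list, did not pass the test (-0.068, adjusted p = 0.425). *Itgb1*, for a chain of the main fibronectin receptors, had a log2 fold change of -0.0021 (95% confidence interval -0.089 to 0.085), and *Cd44* one of 0.018 (-0.082 to 0.12).

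Of the TGF-β ligands, carriers and receptors, 4 of 9 genes tested fell and 1 rose, with a median of -0.14. *Tgfbr2*, the receptor chain that binds TGF-β1 first, fell from 188 ± 8.76 to 143 ± 1.83 CPM (-0.40, adjusted p = 3.61e-05), whereas *Tgfbr1*, its signalling partner, rose from 76.2 ± 3.66 to 92.6 ± 1.50 CPM (0.28, adjusted p = 0.00102). *Lrrc32*, which encodes GARP, a membrane carrier of latent TGF-β1, fell from 78.2 ± 14.6 to 47.6 ± 2.20 CPM (-0.71, adjusted p = 8.08e-05), and *Nrros*, for the related carrier of myeloid cells, had a log2 fold change of -0.011 (95% confidence interval -0.12 to 0.099). *Acvrl1*, for a further type I receptor of this family, fell too (-0.53, adjusted p = 7.55e-05), and the fourth gene to fall was *Furin*, for a protease that processes the TGF-β1 precursor. In the list of SMAD signalling and TGF-β feedback, 3 of 11 rose and none fell, with a median of 0.14. *Smad3*, for a signal carrier downstream of this receptor, went from 10.8 ± 0.164 to 16.8 ± 1.48 CPM (0.65, adjusted p = 3.41e-04). *Smad2* (0.20, adjusted p = 0.00932) and the decoy receptor gene *Bambi* (0.48, adjusted p = 0.0132) lost their calls without AclyM-KO replicate 2 (0.18, adjusted p = 0.0653, and 0.46, adjusted p = 0.0515), and *Bambi* also without AclyM-KO replicate 1 (0.43, adjusted p = 0.0617).

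Around IGF-1, 2 of 7 genes tested fell and 1 rose, with a median of -0.12. *Ide*, for an enzyme that degrades insulin and related peptides, rose from 114 ± 3.42 to 147 ± 5.45 CPM (0.37, adjusted p = 7.18e-05). The receptor genes *Insr* (-0.31, adjusted p = 0.0118) and *Igf2r* (-0.23, adjusted p = 0.0303) fell, but both calls were lost without AclyM-KO replicate 2 (-0.29, adjusted p = 0.0692, and -0.21, adjusted p = 0.137) or 3 (-0.28, adjusted p = 0.0591, and -0.22, adjusted p = 0.105), and that of *Igf2r*, which overlaps the lncRNA *Airn*, also without Ctrl replicate 2 (-0.12, adjusted p = 0.0621) in DESeq2 (-0.24, adjusted p = 0.166) and with rows summed (-0.23, adjusted p = 0.0556). Of other repair growth factors, 4 of 12 fell and none rose, with a median of -0.13. *Vegfa*, the main angiogenic factor, fell from 120 ± 24.1 to 54.1 ± 5.27 CPM (-1.14, adjusted p = 2.46e-06), and *Hbegf*, for an EGF receptor ligand, from 48.4 ± 13.4 to 26.6 ± 3.40 CPM (-0.85, adjusted p = 7.55e-04). *Pdgfa* (-0.31, adjusted p = 0.0214) and *Csf1* (-0.17, adjusted p = 0.0465) were near the limit, and each lost its call without AclyM-KO replicate 2 (-0.26, adjusted p = 0.105, and -0.18, adjusted p = 0.110), Ctrl replicate 2 (-0.26, adjusted p = 0.0583, and -0.14, adjusted p = 0.0721) or Ctrl replicate 3 (-0.30, adjusted p = 0.0586, and -0.17, adjusted p = 0.0779), and *Csf1* also without AclyM-KO replicate 3 (-0.11, adjusted p = 0.224). The *Csf1* call was lost as well in DESeq2 (adjusted p = 0.0632), with a replicate block (0.0612), with upper-quartile scaling (0.0568) and with the rows of a gene summed (0.0883) or averaged (0.0768).

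**Figure D4:**
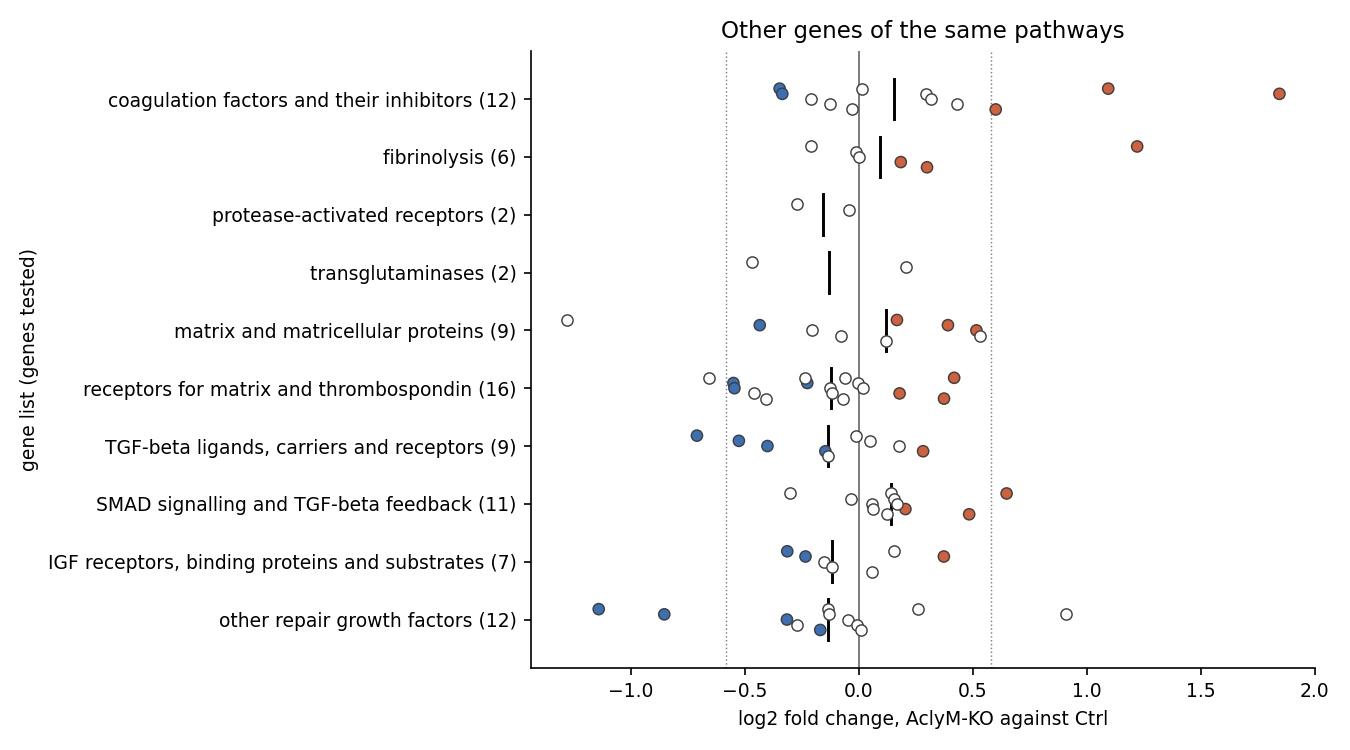
Log2 fold change in AclyM-KO against Ctrl (edgeR) of each tested gene of the 10 pathway lists, with the number tested in parentheses. Filled points have an adjusted p under 0.05 (blue lower, orange higher), open points do not, black lines are medians and dotted lines stand at -0.58 and 0.58; every list median lies between -0.16 and 0.16.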

How the data were processed

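Sources: the deposited table holds read counts for each RefSeq transcript in 6 libraries, not normalized by the authors. The authors prepared strand-specific libraries (KAPA mRNA HyperPrep) and aligned reads to mm10 with STAR 2.5.2b; the submitters' processing notes also name CASAVA 1.8.2. The counting program is not given in the sources used here. Of 35745 rows, 99.67% were paired with genes (RefSeq GRCm38.p6, then GENCODE M21, which also gave the gene positions). The 117 rows without a gene held 0.370% to 1.38% of counts and were left out.

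Counts were tested with edgeR 4.0.16 (filterByExpr, TMM, glmQLFit and glmQLFTest, genotype only) with Benjamini-Hochberg adjustment over 12023 genes. The standard error is the size of the log2 fold change divided by the root of F. Permutation tests were exact and two-sided, on CPM for the genes, with p = 0.10 as the smallest possible value. The procedure was tested on simulated data. Libraries of a group differed beyond sampling noise (chi-square per gene 2.32 to 7.55). Alternatives included DESeq2 1.42.0, limma-voom 3.58.1, other scalings, filters and row choices, a replicate term and leaving out each library. The 10 genes and the lists were chosen with earlier results of these data known. Named are the 10 genes, *Acly*, neighbouring genes, markers beyond 0.58 and absent markers. From each list come up to 4 called genes with the smallest adjusted p and up to 2 uncalled genes of highest CPM. *Vkorc1*, *Furin*, *F2r*, *Gm16548*, *Kdr*, *Icam2*, *Lrp1*, *Sdc4* and *Cd47* were named after their values were seen. Intervals for low counts cover counting error only, as reads carry no molecular identifiers. A few marker genes that this rule names are left out here.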

Additional observations from a re-analysis of the deposited data

How the results depend on the processing

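*F3*, *F10*, *F13a1*, *Tgm2*, *Postn*, *Igf1* and *Thbs1* kept their direction and an adjusted p under 0.05 in DESeq2, limma-voom, 3 other scalings, 2 other filters, 2 other ways to join the rows of a gene, a replicate block and the removal of each library. *F7* had a log2 fold change of -0.21 (adjusted p = 0.0548) with the rows of each gene summed over all genes, and -0.29 to -0.17 with 1 library left out. *Fn1* passed with no filter on low counts (-0.12, adjusted p = 0.0477) and ranged from -0.21 to 0.028 with 1 library left out, while *Tgfb1* ranged from -0.14 to -0.069. Between 972 and 1548 genes were lower with 1 library left out, the fewest without AclyM-KO replicate 2, against 1511. In the pathway lists, 10 to 18 fell, 2 to 5 fell beyond 0.58 and 3 to 5 rose beyond 0.58. A test against a change of 0.58 itself (glmTreat) called 41 genes lower and 77 higher, of which *F3* was the 1 of the 10 genes lower and *Thbs1* higher, and 1 and 2 genes of the lists. With the replicate number as a block, 1329 genes were lower and 1315 higher, and 6 of the 10 genes fell and 2 rose, the same as without it. The labels do not say that the numbers pair libraries, and same-numbered libraries did not deviate together (r = -0.065 to 0.050). Of the 36 list genes named by the rule, 3 changed sign, all near 0. *Cd44* was at -0.0012 with library size only and -0.026 to 0.061 with 1 library left out, *Itgb1* at 0.0025 with upper-quartile scaling, and with 1 library left out *Itgb1* was at -0.026 to 0.027 and *Nrros* at -0.057 to 0.021. Other scalings moved the median of all genes by at most 0.019. The cause of these changes was not tested.

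Depth limits *F3*, *F13a1* and *Postn*, each under 160 counts per library. Splice forms, strands and unspliced RNA could not be separated, and 3 libraries per group, from pooled mice by 1 account, cannot be taken to give the spread between animals.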
